A study of Mus musculus with 15 samples.

Results

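Syde2, Raet1e, Zfp808, Jazf1, Zfp551 and Smtn are 6 mouse genes whose reads were present in every WT library and nearly missing from every Trem2-/- library of the BV2 line. They were chosen by the raw counts themselves, as genes with at least 10 counts in each of the 8 WT libraries and at most 3 counts in each of the 7 Trem2-/- libraries. Of 54390 genes listed in the count tables, 7 met this rule, and the 6 described here are all of those but Egln3. The WT to Trem2-/- difference of these genes is therefore a description of how they were chosen and was not tested.

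BV2 is an immortalised mouse microglial line, used as a macrophage model. RNA-seq was available for 15 libraries: WT cells gave 4 foamy and 4 non-foamy libraries, and Trem2-/- cells gave 4 foamy and 3 non-foamy libraries. Foamy cells had been given 20 ug/ml soluble cholesterol overnight, and non-foamy cells had medium alone. According to the methods, knockout cells were made from BV2 cells that carried a Cas9 lentivirus and had been cloned by dilution, and the Trem2 line received a guide RNA plasmid, puromycin selection and a further round of single-cell cloning. The sources do not state clearly whether the WT cells had also been cloned, so the loss of Trem2 and the origin of the line from 1 cell cannot be told apart in these libraries. Nothing in the labels says that replicates came from separate cultures, so p-values measure the spread between these libraries, which may be technical.

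The 6 genes belong to different systems. Syde2 encodes a GTPase-activating protein, a kind of protein that turns off signalling GTPases. Smtn encodes smoothelin, an actin-binding protein best known from contractile smooth muscle cells. Raet1e encodes a cell surface ligand of NKG2D, the activating receptor by which natural killer cells and some T cells recognise stressed cells. Jazf1 encodes a zinc finger protein that is part of the NuA4/TIP60 histone acetyltransferase complex and is known from gene fusions in endometrial stromal tumours. Zfp808 and Zfp551 carry the names of zinc finger proteins, a large family in which many members recruit the Trim28 co-repressor to DNA through a KRAB domain.

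The genes lie on 6 different chromosomes (GENCODE M21, GRCm38), and all are annotated as protein coding. Syde2 (ENSMUSG00000036863) is at chr3:145987870-146021720 on the plus strand and Smtn (ENSMUSG00000020439) at chr11:3517523-3540612 on the minus strand. Raet1e (ENSMUSG00000053219) spans chr10:22158569-22374139 on the plus strand. Jazf1 (ENSMUSG00000063568) is at chr6:52768797-53068631 on the minus strand. Zfp808 (ENSMUSG00000074867) is at chr13:62129886-62236144 on the plus strand and Zfp551 (ENSMUSG00000034071) at chr7:12415153-12422751 on the minus strand.

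Promoter sequence was taken from RefSeq (GRCm38.p6), which lists windows of 300 bases, 250 before and 50 after the transcription start. All 6 genes have such a window. Raet1e and Jazf1 have 2 each, of which 1 per gene is described here. The 250 bases before the start are shown 5′ to 3′ for 4 of them, because the genes were nearly absent together and their promoters span the range from CpG-dense to CpG-poor. Capitals mark each CpG, the dinucleotide at which mammalian DNA is methylated. The windows are chr3:145987620-145987869 (plus strand) for Syde2, chr6:53068625-53068874 (minus strand) for Jazf1, chr10:22158319-22158568 (plus strand) for Raet1e and chr13:62129640-62129889 (plus strand) for Zfp808.
Syde2: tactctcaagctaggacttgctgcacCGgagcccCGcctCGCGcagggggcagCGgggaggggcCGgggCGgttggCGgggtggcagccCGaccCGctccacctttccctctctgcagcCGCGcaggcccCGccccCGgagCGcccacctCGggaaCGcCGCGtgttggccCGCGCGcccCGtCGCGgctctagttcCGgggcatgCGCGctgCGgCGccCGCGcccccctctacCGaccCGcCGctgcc
Jazf1: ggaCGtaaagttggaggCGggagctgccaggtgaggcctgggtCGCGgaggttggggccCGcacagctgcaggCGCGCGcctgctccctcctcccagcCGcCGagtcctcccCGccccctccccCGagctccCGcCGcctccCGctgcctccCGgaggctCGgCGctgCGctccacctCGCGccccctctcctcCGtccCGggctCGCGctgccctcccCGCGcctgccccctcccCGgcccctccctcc
Raet1e: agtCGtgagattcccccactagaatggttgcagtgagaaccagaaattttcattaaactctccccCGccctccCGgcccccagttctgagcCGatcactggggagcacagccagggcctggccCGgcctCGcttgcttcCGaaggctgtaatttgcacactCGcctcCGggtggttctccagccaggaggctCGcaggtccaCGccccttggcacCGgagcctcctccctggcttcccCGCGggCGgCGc
Zfp808: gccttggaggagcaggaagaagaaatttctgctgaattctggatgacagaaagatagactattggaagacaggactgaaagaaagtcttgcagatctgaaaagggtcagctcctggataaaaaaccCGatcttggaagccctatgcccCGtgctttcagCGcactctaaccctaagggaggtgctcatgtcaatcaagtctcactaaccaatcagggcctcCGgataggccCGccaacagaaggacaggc

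Over the 300 bases, the promoters of Syde2 and Jazf1 each held 39 CpG, and 95.6% of the 32851 promoters in the table held fewer. Raet1e had 21 CpG (75.2% of promoters held fewer), Zfp551 had 16 (67.0%), Smtn had 11 (58.6%) and Zfp808 had 8 (51.4%), where the median promoter had 7. The 6 promoters thus covered the upper part of the distribution and did not form a single class. This background was all listed promoters, not only those of genes expressed in these cells. The 6 genes were chosen for their WT counts, and no comparison with tested genes alone was made, for CpG or for motifs. GC content ran from 50.3% for Zfp808 and 54.7% for Zfp551 through 56.3% for Smtn and 65.3% for Raet1e to 75.0% for Syde2 and 79.0% for Jazf1, against a median of 52.7%. The RefSeq start of Zfp551 lies 260 bases, and that of Smtn 1320 bases, from the start of the GENCODE gene, whereas for the other genes the starts were at most 7 bases apart.

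A GC box (GGGCGG on either strand) was found in the windows of 5 of the 6 genes, all but Zfp808, and in 35.7% of all promoters. A CCAAT box was found for Zfp808 and Smtn, and in 37.4% of all promoters. The letters TATAAA (13.6% of all promoters), GAGGAA, the core of a PU.1 site (28.3%), TGACTCA, an AP-1 site (5.2%), and CACGTG, an E-box (7.15%), were in none of the 6 windows, searched on both strands. No motif searched was present in all 6 windows. No chromatin or methylation data of these cells were used here.

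**Figure D1:**
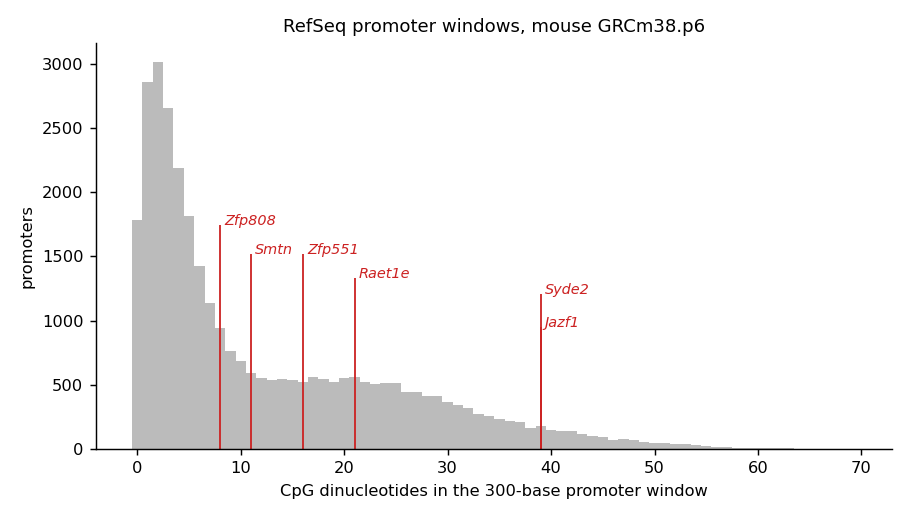
Number of CpG dinucleotides in the 300-base RefSeq promoter windows (x axis) against the number of promoters with that many (y axis, grey bars), with a red line for each of the 6 genes. Syde2 and Jazf1 coincide at 39, far in the upper tail, while Zfp808 at 8 lies next to the median of 7.

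Library totals ranged from 23538963 to 41683825 counted reads in WT and from 29353996 to 38281707 in Trem2-/- libraries, and the 2 ranges overlapped. Reads of Trem2, the targeted gene, were counted in every Trem2-/- library (5941 to 8161, against 9423 to 15214 in WT). The paper reports the knockout at the level of Trem2 protein, by flow cytometry, which these RNA counts do not measure. By edgeR's quasi-likelihood test Trem2 reads were lower, with a log2 fold change of −0.67 (SE 0.08, adjusted p = 2.85e-07) in non-foamy and −0.73 (SE 0.07, adjusted p = 7.09e-08) in foamy cells. In that test a gene was called at an adjusted p under 0.05. All 10 microglia and macrophage markers were counted, with a summed level of 3846 to 4741 CPM (counts scaled to a common library size) in WT and 5766 to 6163 in Trem2-/- libraries. In both genotype comparisons 7 of them were higher and 1, Cx3cr1, lower in Trem2-/- cells, where 21.0% of all tested genes were higher and 22.6% lower in non-foamy and 14.3% and 15.9% in foamy cells, and the part of this shift in the values of the 6 genes was not tested. Of 5 fibroblast markers all were at 0, no T or B cell marker passed 6 counts in a library, no epithelial marker passed 4, and among 5 neural and glial markers Mbp was highest, at up to 26 counts.

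In every library, between 82.7% and 83.9% of the gene values from 1 to 10 were even numbers, against 51.3% to 53.4% of values above 100. At low levels the counts therefore came mostly in pairs, and 2 counts may stand for 1 sequenced fragment. Among the 6 genes, Smtn was even in 8 of 8 WT libraries, Syde2 and Zfp808 in 6, Zfp551 in 5, Jazf1 in 4 and Raet1e in 2. The intervals below of the pooled Trem2-/- count, as a percentage of the WT count, cover counting error only. They treat each count as independent, so they are too narrow where counts are paired. Spread between libraries is left out of them. They also describe values that chose the genes, so they are descriptions and not tests.

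Taken over all 8 WT libraries, the 6 genes had 2793 counts among 273643395 reads, and over the 7 Trem2-/- libraries they had 15 among 230061226. Of the 42 values in Trem2-/- libraries, 34 were 0, and 5 of the 8 others were exactly 2. No Trem2-/- library held more than 5 counts over all 6 genes: 1 non-foamy library held 2, 1 held 1 and 1 held 0, and the foamy libraries held 2, 5, 5 and 0. In WT libraries the same sum ran from 210 to 466. In bulk RNA, fewer cells with a transcript and less transcript per cell cannot be told apart, so these counts do not say whether a few Trem2-/- cells kept the genes.

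**Figure D2:**
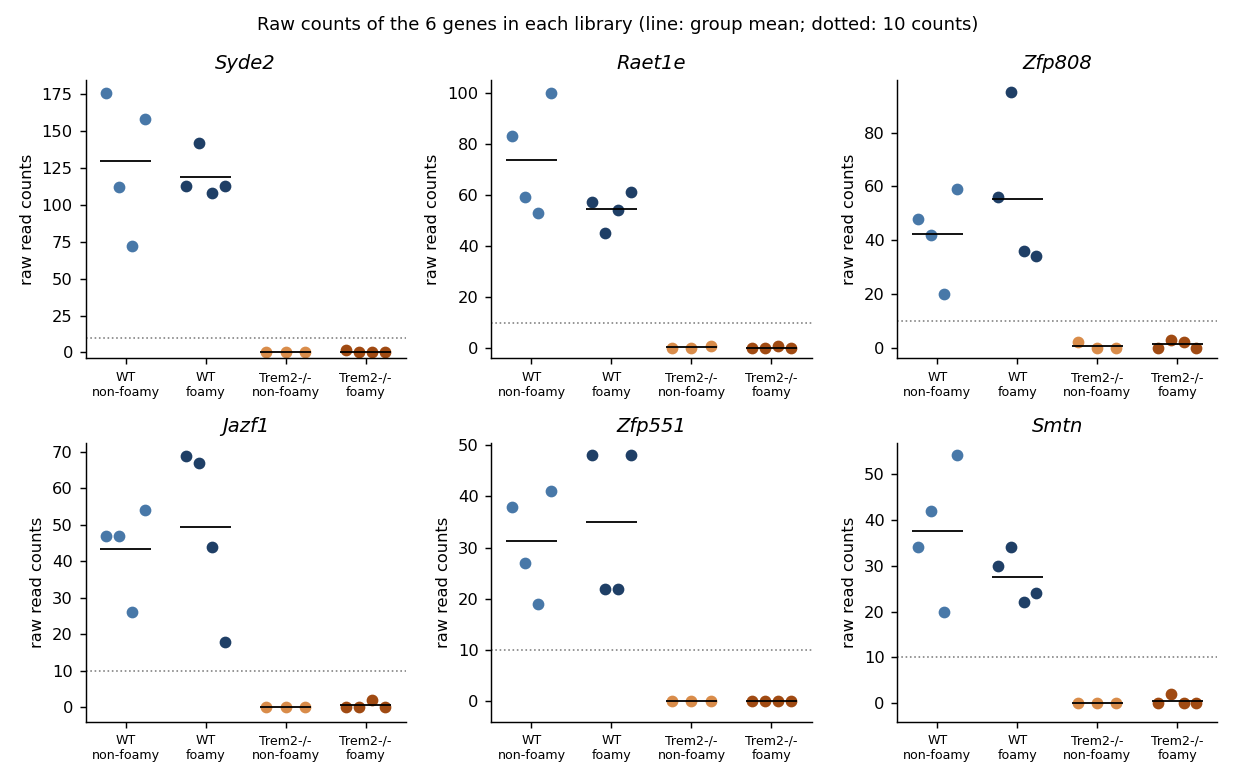
Raw read counts (y axis, a separate scale in each panel) of the 6 genes in each of the 15 libraries, by group (x axis); each point is 1 library, the black line is the group mean and the dotted line marks 10 counts. All WT points lie at 18 counts or more and all Trem2-/- points at 3 or fewer.

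Syde2 had the most reads of the 6 genes. It was counted 176, 112, 72 and 158 times in the WT non-foamy libraries and 113, 142, 108 and 113 times in the WT foamy libraries. In Trem2-/- cells it was at 0 in all 3 non-foamy libraries and at 2, 0, 0 and 0 in the foamy libraries. No Trem2-/- library came near the lowest WT library, non-foamy replicate 3. Scaled to library size, Syde2 averaged 3.45 ± 0.526 CPM in WT (SD, n = 8), and the pooled Trem2-/- count was 0.239% of the WT count per read (95% exact interval 0.0289% to 0.867%). Its transcript shared 0.77% of its 50-base stretches with another annotated gene, Gm48343, which had no counts, and no exon overlapped another gene.

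Smtn, the smoothelin gene, was counted 34, 42, 20 and 54 times in WT non-foamy and 30, 34, 22 and 24 times in WT foamy libraries. All 3 Trem2-/- non-foamy libraries and 3 of the 4 Trem2-/- foamy libraries had 0 counts, and the other had 2. Its WT level was 0.904 ± 0.248 CPM (SD, n = 8), the lowest of the 6, and the pooled Trem2-/- count was 0.915% of the WT count per read (0.11% to 3.34%). Smtn is a low gene in these cells, above 17.4% of the 14237 tested genes in CPM and above 9.45% in CPM per kb of exon. Of its exonic bases, 16.3% overlap the antisense genes Gm11946 and Gm11947, and reads of the 2 strands cannot be separated here because the strand setting of the counting is not stated; Gm11946 was at 0 in every library.

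Raet1e, the NKG2D ligand gene, was counted 83, 59, 53 and 100 times in WT non-foamy and 57, 45, 54 and 61 times in WT foamy libraries. The Trem2-/- non-foamy libraries had 0, 0 and 1 counts and the foamy libraries 0, 0, 1 and 0. Its WT level was 1.81 ± 0.43 CPM (SD, n = 8), and the pooled Trem2-/- count was 0.465% of the WT count per read (0.0561% to 1.69%). The identity of these reads is less certain than for Syde2, since 44.65% of the 50-base stretches of Raet1e also occur in Raet1d or H60b, and 22.97% of its exonic bases overlap these 2 genes on the same strand. Raet1d, a second ligand of the same receptor, was counted 14 to 59 times in WT and 5 to 24 times in Trem2-/- libraries, so reads of Raet1d remained in every Trem2-/- library.

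Jazf1, of the TIP60 complex, was counted 47, 47, 26 and 54 times in WT non-foamy and 69, 67, 44 and 18 times in WT foamy libraries. It was at 0 in 6 of 7 Trem2-/- libraries and at 2 in foamy replicate 3. WT foamy replicate 4, with 18 counts, was the lowest WT value of any of the 6 genes and the nearest to the threshold of 10. The WT level was 1.28 ± 0.368 CPM (SD, n = 8), and the pooled Trem2-/- count was 0.639% of the WT count per read (0.0772% to 2.33%). No 50-base stretch of Jazf1 was shared with another gene and no exon overlapped one, so its reads were not shared with an annotated gene.

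The zinc finger gene Zfp808 was counted 48, 42, 20 and 59 times in WT non-foamy and 56, 95, 36 and 34 times in WT foamy libraries. The Trem2-/- non-foamy libraries had 2, 0 and 0 counts and the foamy libraries 0, 3, 2 and 0, which made it the member with the most residual reads. Its WT level was 1.32 ± 0.443 CPM (SD, n = 8), and the 7 residual counts came to 2.13% of the WT count per read (0.853% to 4.44%). Zfp808 shares 28.23% of its 50-base stretches with 18 other genes, foremost Zfp934, Gm3325, Gm7240 and Gm5141. Those 4 did not move together: by edgeR's test Zfp934 was lower in Trem2-/- cells (log2 fold change −1.08, SE 0.25, adjusted p = 0.000982, in non-foamy and −0.99, adjusted p = 0.00167, in foamy cells), Gm7240 was higher (1.92, SE 0.26, adjusted p = 2.68e-06, and 2.15, adjusted p = 6.68e-07), and Gm3325 and Gm5141 were not called (adjusted p 0.0998 to 0.909). How the authors' counting treated reads with several matches is not stated, so the values of Zfp808 are less certain than those of Jazf1 and Zfp551.

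Zfp551 was the only member with no read in any Trem2-/- library. It was counted 38, 27, 19 and 41 times in WT non-foamy and 48, 22, 22 and 48 times in WT foamy libraries, a WT level of 0.919 ± 0.263 CPM (SD, n = 8). With a limit of 3 counts over the 7 libraries for a count of 0, Zfp551 was at least 74.3-fold lower in Trem2-/- than in WT cells, a bound that takes counts as independent, would be smaller if counts are paired and describes values that chose the gene. It shared no 50-base stretch with another gene, and no exon overlapped one. Within WT libraries the 6 genes varied by a coefficient of variation of 15.3% (Syde2) to 33.6% (Zfp808), and Syde2 had the highest mean in CPM, followed by Raet1e. Zfp808 and Jazf1 differed by less than their SD, as did Zfp551 and Smtn. Per kb of exon the order was Raet1e (0.839 CPM per kb), Syde2 (0.6), Jazf1 (0.505), Zfp551 (0.349), Zfp808 (0.279) and Smtn (0.206), and each of them lay above no more than 24.2% of the tested genes on that scale.

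The values around the 2 thresholds follow from the rule, and several genes just outside it had counts much like those of the 6. Just outside the WT threshold, Ptgfrn had 8 to 38 counts in WT libraries and 0 in all Trem2-/- libraries, Cyp2s1 had 4 to 18 and 0, and Kdm5b had 2 to 17 and at most 2. Just outside the Trem2-/- threshold, Rbpms had 30 to 98 counts in WT and at most 4 in Trem2-/- libraries, F5 had 14 to 50 and at most 4, and Zfp229 had 10 to 20 and at most 4. Just inside, Jazf1 had the lowest WT count (18) and Zfp808 the highest Trem2-/- count (3). Egln3, the other gene that met the rule, encodes an oxygen-dependent prolyl hydroxylase of the hypoxia response, had 26 to 60 counts in WT and 0 in every Trem2-/- library, and was at least 95.8-fold lower with the same limit.

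By the ratio of mean CPM in WT to that in Trem2-/- cells over the 15 libraries, the genes most like the 6 were those with no Trem2-/- read at all, Ptgfrn, Cyp2s1, AU041133, Egln3 and Smagp, and then Rbpms with a ratio of 123. The ratio was 434 for Syde2, 196 for Raet1e, 142 for Jazf1, 99.5 for Smtn and 42.8 for Zfp808. AU041133 and Smagp differ from the 6 genes in having 0 counts in at least 1 WT library.

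The opposite direction was read with the mirrored rule. That rule, at least 10 counts in every Trem2-/- library and at most 3 in every WT library, was met by 0 of the 12339 genes that had at least 10 counts in every Trem2-/- library, and the rule that chose the 6 genes was met by 7 of the 12298 genes with at least 10 counts in every WT library. The nearest were A530076I17Rik (28 to 60 counts in Trem2-/- and 0 to 6 in WT libraries), Grik4 (29 to 45 and 0 to 8) and Phyhd1 (14 to 20 and 1 to 9). Among tested genes, 23 were at least 16 times lower in mean CPM in Trem2-/- cells, the 6 members among them, and 6 were at least 16 times higher. The mirrored count was 2 with a minimum of 5 counts, and no test compared the 2 directions.

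**Figure D3:**
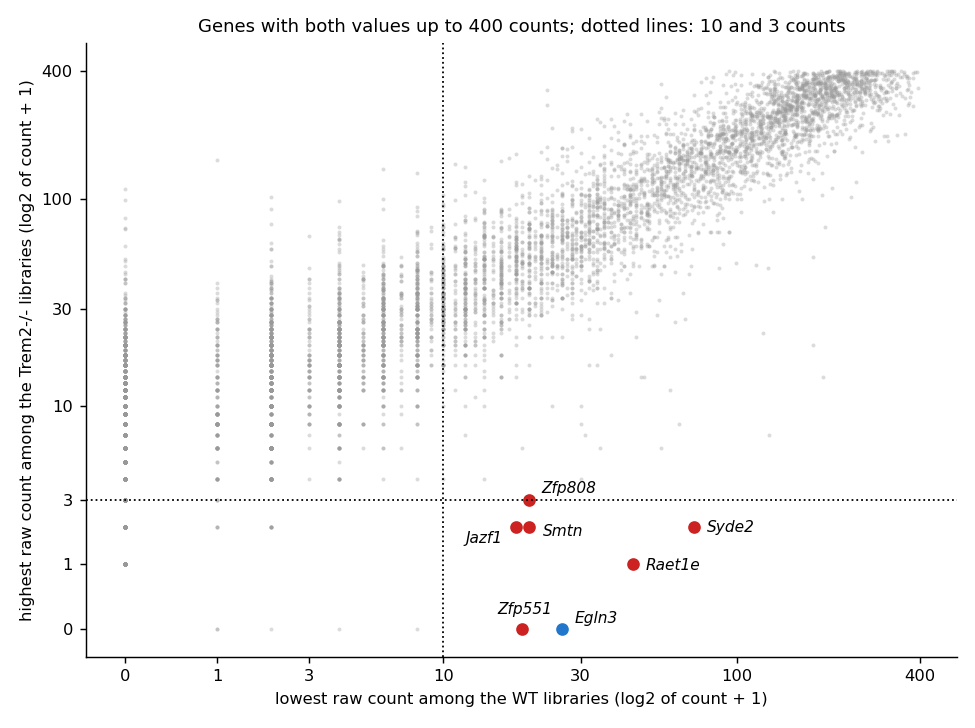
Lowest raw count among the 8 WT libraries (x axis) against the highest raw count among the 7 Trem2-/- libraries (y axis), both spaced by the log2 of count + 1, for genes with both values up to 400; red points are the 6 genes, the blue point is Egln3 and grey points are other genes. The 7 named genes occupy the lower right field bounded by the dotted lines at 10 and 3 counts, below the diagonal cloud that holds most genes.

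The response to cholesterol within WT cells was not used to choose the genes and was tested. None of the 6 changed detectably with cholesterol loading. All 6 passed the filter on low counts, and by edgeR's quasi-likelihood test 0 of 6 were called at an adjusted p under 0.05, and 0 at an unadjusted p under 0.05 (Raet1e passed that unadjusted level in 3 of 15 alternatives), where 2.80% of all tested genes were called. DESeq2 likewise called 0 and gave 0 at an unadjusted p under 0.05, but it returned no adjusted p for 5 of the 6. The estimates were lower in foamy cells for 3 genes and higher for 3, with a median log2 fold change of −0.10 against 0.005 over all tested genes.

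Raet1e came closest to a change. It was at 2.15, 1.9, 2.33 and 2.23 CPM in WT non-foamy and 1.38, 1.1, 1.65 and 1.75 CPM in WT foamy libraries, so that every foamy library lay below every non-foamy library. The means were 2.15 ± 0.185 and 1.47 ± 0.291 CPM (SD, n = 4 each). By edgeR's quasi-likelihood test the log2 fold change was −0.55 (SE 0.28, 95% interval −1.13 to 0.02, unadjusted p = 0.0588, adjusted p = 0.33). Smtn showed the same arrangement, with 0.882, 1.35, 0.88 and 1.2 CPM in non-foamy and 0.725, 0.831, 0.673 and 0.687 CPM in foamy libraries. Its log2 fold change was −0.57 (SE 0.39, 95% interval −1.37 to 0.24, edgeR adjusted p = 0.512), with means of 1.08 ± 0.237 and 0.729 ± 0.0718 CPM. The WT groups of these 2 of the 6 genes did not overlap, as was the case for 9.71% of the tested genes.

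Syde2 was at 3.72 ± 0.597 CPM in non-foamy and 3.18 ± 0.319 CPM in foamy WT cells (SD, n = 4 each), and its groups overlapped. Its log2 fold change of −0.23 (SE 0.22) had a 95% interval of −0.68 to 0.22, so a fall to below 0.624 of the non-foamy level, or a rise above 1.17 times it, lies outside that interval (edgeR adjusted p = 0.668). The other 3 genes had wider spread in foamy than in non-foamy libraries. Zfp808 was at 1.2 ± 0.217 and 1.44 ± 0.611 CPM (log2 fold change 0.26, 95% interval −0.55 to 1.06, edgeR adjusted p = 0.806), with foamy replicate 2 at 2.32 CPM above all other libraries. Jazf1 was at 1.27 ± 0.165 and 1.29 ± 0.537 CPM (0.03, −0.78 to 0.84, edgeR adjusted p = 0.984), with foamy replicate 4 at 0.515 CPM below all others. Zfp551 was at 0.902 ± 0.0646 and 0.936 ± 0.396 CPM (0.05, −0.78 to 0.87, edgeR adjusted p = 0.97), with 2 foamy libraries above and 2 below every non-foamy library. Each of these intervals included 0, and the smallest change that could be detected at this depth was not measured. The sign of the last 3 estimates turned when single libraries were left out. The response in Trem2-/- cells, and the difference between the responses, could not be measured for the 6 genes because the counts were at or near 0 in both Trem2-/- groups.

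**Figure D4:**
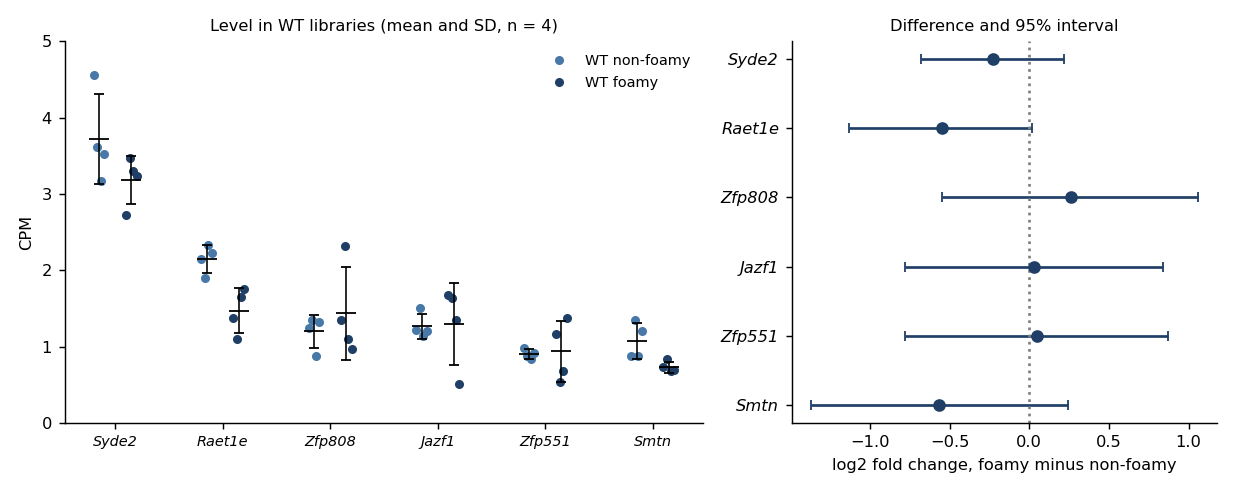
Left, level of the 6 genes in CPM (y axis) in the WT non-foamy and WT foamy libraries, with points for libraries and black bars for the mean and SD (n = 4); right, log2 fold change of foamy minus non-foamy (x axis) with its 95% interval from edgeR. All 6 intervals include 0, and the foamy points of Raet1e and Smtn lie below their non-foamy points.

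Whether the loss extended along the chromosome was read from the 5 nearest protein-coding genes on each side of each member, which were set by position. Only the 6 genes and Egln3, which is on chromosome 12, met the count rule. That no neighbour met it was therefore fixed by the choice of genes and says nothing about the loss. Called neighbours were found in both directions. Of the 60 neighbours, 29 were tested, 22 had no counts in any library and 9 had too few. In non-foamy cells 9 of the 29 were lower and 8 higher without Trem2 by edgeR's test, against 22.6% lower and 21.0% higher over all tested genes, and in foamy cells 5 were lower and 5 higher, against 15.9% and 14.3%. Their median log2 fold change was 0.09 in non-foamy and 0.01 in foamy cells, close to the medians of 0.02 and 0.0 over all genes. With scaling by total counts alone the neighbours split into 11 lower and 4 higher in non-foamy and 9 and 2 in foamy cells, since that scaling moves the median of all genes to −0.13 in both.

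The gene next in line was not expressed for every member. Vmn1r84, 45879 bases from Zfp551 and its closest neighbour, had no counts, Wdr63, 18805 bases from Syde2, had 0 to 8 counts and was not tested, and Gm3604, 132183 bases from Zfp808, had 0 counts in all WT and up to 16 in Trem2-/- libraries. Near Smtn, Jazf1 and Zfp551, the fold changes of Selenom, Inpp5j, Tax1bp1 and Zfp606 had standard errors of 0.06 to 0.21. They were larger, 0.97 and 0.76, for Pla2g3, 18172 bases from Smtn. Selenom, a selenoprotein gene that ends 171 bases from Smtn, was at 29.1 CPM in WT and 34.3 in Trem2-/- cells (log2 fold change 0.19, adjusted p = 0.084, in non-foamy and 0.29, adjusted p = 0.0113, in foamy cells by edgeR). Inpp5j, an inositol polyphosphate phosphatase gene 12701 bases from Smtn, was higher in Trem2-/- cells (1.08, adjusted p = 0.000187, and 0.74, adjusted p = 0.00412). Tax1bp1, an autophagy receptor gene 2016 bases from Jazf1, was at 161 and 166 CPM (0.10, adjusted p = 0.246, and −0.01, adjusted p = 0.947). Zfp606, 55541 bases from Zfp551, was at 5.54 and 6.42 CPM (0.34, adjusted p = 0.0585, and 0.10, adjusted p = 0.628), and the other 9 neighbours of Zfp551 had no counts.

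Around Syde2, 7 of 10 neighbours were tested and their log2 fold changes ran from −0.54 to 0.43, with standard errors of 0.06 to 0.1. The largest fall there was that of Ssx2ip (−0.53, adjusted p = 0.000187, in non-foamy and −0.54, adjusted p = 0.000129, in foamy cells by edgeR), and Mcoln3, a lysosomal ion channel gene, rose (0.43, adjusted p = 2.37e-05, and 0.27, adjusted p = 0.00261). Around Raet1e, E030030I06Rik, 9298 bases away, was at 4.06 and 4.18 CPM, whereas Raet1d fell (−1.31, SE 0.45, adjusted p = 0.022, and −1.30, adjusted p = 0.0335 by edgeR), and Raet1d is the gene that shares sequence with Raet1e. Around Zfp808, Zfp934 fell as given above, Gm49359 (3.37 and 4.48 CPM) and Platr25 (8.52 and 8.94 CPM) were not called, and 7 neighbours were not tested. Beside Smtn, Osbp2 (−3.89, SE 0.99, adjusted p = 0.00271, in non-foamy and −0.81, adjusted p = 0.447, in foamy cells) and 4921536K21Rik (−1.43, SE 0.45, adjusted p = 0.0124, and −1.21, adjusted p = 0.0381) were lower by edgeR and Pla2g3 higher in non-foamy cells (3.64, SE 0.97, adjusted p = 0.00384, and 1.54, adjusted p = 0.137), and Osbp2 and Pla2g3 had at most 24 and 12 counts in any library.

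**Figure D5:**
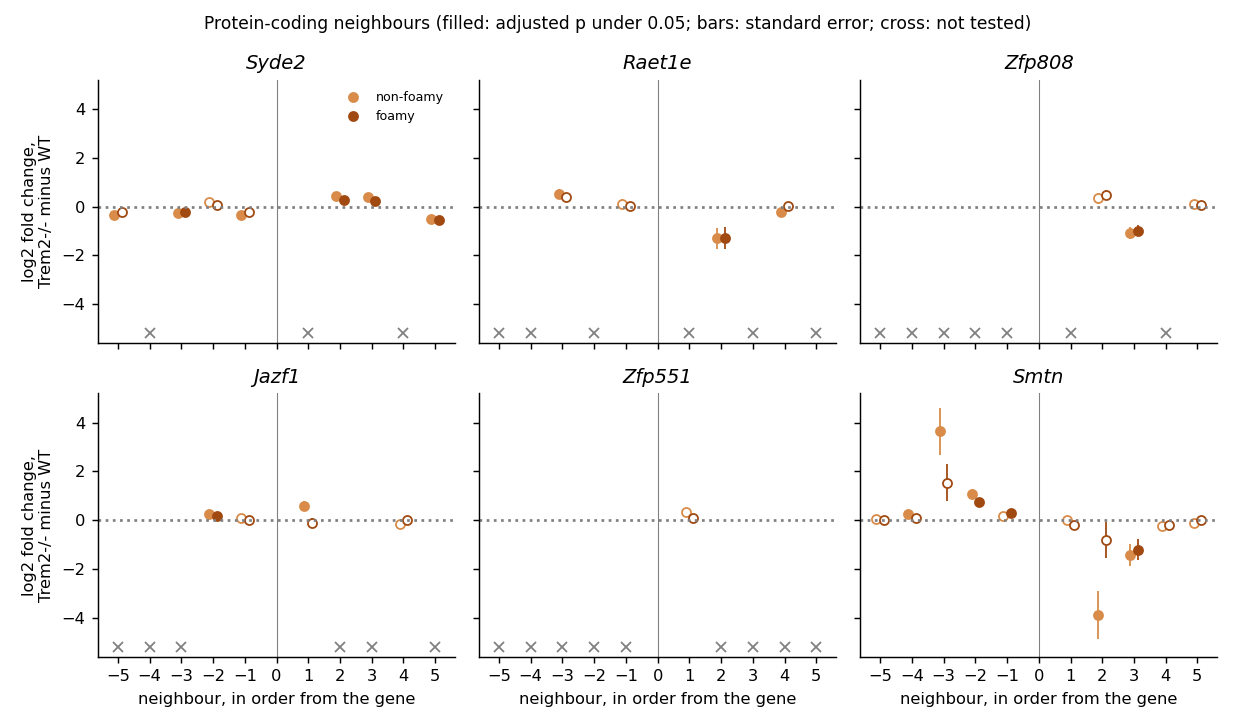
Log2 fold change of Trem2-/- minus WT (y axis) for the 5 nearest protein-coding genes on each side of the 6 genes, in order along the chromosome with the gene itself at 0 and not drawn (x axis); light and dark points are non-foamy and foamy cells, bars are standard errors, filled points have an edgeR adjusted p under 0.05, and crosses at the bottom are genes not tested. Most tested neighbours lie within 1 log2 unit of 0, on both sides of it.

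Genes that work with the 6 were read from lists made from general knowledge, and in each list the member itself was left out. Among NKG2D ligands, Ulbp1 was by far the highest, at 43.1 CPM in WT and 44.4 in Trem2-/- cells, and was not called (log2 fold change 0.09, adjusted p = 0.327, in non-foamy cells and adjusted p = 0.977 in foamy cells by edgeR). Of 8 ligands named besides Raet1e, 4 were found among the genes listed. H60c was at 0 and H60b had 6 counts in 1 WT library and 0 in the others, so 2 were tested. Raet1d was the 1 called, lower in both comparisons, where 22.6% and 15.9% of all tested genes were lower. The summed level of the 4 ligands was 39.5 to 49.3 CPM in WT and 42.1 to 46.9 CPM in Trem2-/- libraries, and these ranges overlapped.

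Of 18 other NuA4/TIP60 subunits, all tested, 6 were lower and 1 higher in Trem2-/- non-foamy cells and 5 lower and 1 higher in foamy cells. The shares lower were 33.3% and 27.8%, against 22.6% and 15.9% over all genes, and the median log2 fold changes were 0.0 and −0.04, against 0.02 and 0.0. By total counts alone the split was 7 lower and 0 higher, and 6 and 0. The lower subunits included the helicases Ruvbl1 (−0.61, adjusted p = 9.74e-08, and −0.29, adjusted p = 0.000679) and Ruvbl2 (−0.73, adjusted p = 5.66e-08, and −0.39, adjusted p = 0.000173) and the actin-like Actl6a (−0.73, adjusted p = 6.32e-08, and −0.36, adjusted p = 0.000376) by edgeR, all 3 of which also serve in other chromatin complexes. The catalytic subunit Kat5 (17.5 and 18.8 CPM) and the scaffolds Trrap (42.2 and 42.4) and Ep400 (30.6 and 25.9) were not called.

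For the zinc finger genes, 6 co-repressor genes of the KRAB system were tested. Of these, 4 were lower in Trem2-/- non-foamy and 3 in foamy cells and 0 were higher, with median log2 fold changes of −0.27 and −0.23, where 22.6% and 15.9% of all tested genes were lower. By total counts alone 4 and 4 were lower and 0 higher, with medians of −0.41 and −0.36. The lowest was Cbx5, a heterochromatin protein gene (−0.74, SE 0.07, adjusted p = 5.14e-09, and −0.53, adjusted p = 5.29e-07 by edgeR). Trim28 itself fell in non-foamy cells (−0.30, adjusted p = 0.0121) and was not called in foamy cells (−0.17, adjusted p = 0.153). Of 292 tested genes with a Zfp number, 23 were lower and 87 higher in non-foamy cells and 20 and 42 in foamy cells. With scaling by total counts alone the split was 39 lower and 34 higher, and 40 and 18. That scaling also moved all tested genes, to 4379 lower and 1820 higher, and 3666 and 1115. Of the called Zfp genes 46.6% and 31.0% were then higher, against 29.4% and 23.3% of all called genes. In the main fit 79.1% and 67.7% were higher, against 48.1% and 47.4%. The split thus depended on the scaling, while the share higher stayed above that of all called genes. Among tested Zfp genes the shares lower in the main fit were 7.88% and 6.85%, against 22.6% and 15.9% over all tested genes. The median log2 fold change of the family was 0.16 and 0.07, and 0.02 and −0.06 by total counts alone. After Zfp808 and Zfp551, the lowest of them was Zfp229, with 10 to 20 counts in WT and 0 to 4 in Trem2-/- libraries (−3.95, SE 0.96, adjusted p = 0.00176, and −3.76, adjusted p = 0.000777 by edgeR), a gene chosen by its values.

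Of 14 other contractile genes of smooth muscle, 5 were tested, with median log2 fold changes of 0.40 and 0.33. In non-foamy cells 1 was lower and 2 higher, where 22.6% and 21.0% of all tested genes were. In foamy cells 1 was lower and 1 higher, where 15.9% and 14.3% of all tested genes were. Mylk, the myosin light chain kinase gene, was the 1 that fell, from 7 to 32 counts in WT to 0 to 6 in Trem2-/- libraries (−2.95, SE 0.81, adjusted p = 0.00509, and −4.35, adjusted p = 0.00101 by edgeR). Cald1 rose in both (0.49, SE 0.06, adjusted p = 1.2e-06, and 0.39, adjusted p = 2.43e-05 by edgeR), and Des rose in non-foamy cells (1.23, SE 0.39, adjusted p = 0.0134). By total counts alone the split was 2 lower and 2 higher, and 2 and 1. All tested genes then split into 4379 lower and 1820 higher, and 3666 and 1115. The defining markers of smooth muscle cells, Acta2, Tagln, Myh11, Cnn1 and Des, were low. Their summed level was 0.773 to 1.32 CPM in WT and 0.965 to 2.07 CPM in Trem2-/- libraries. Des had 8 to 34 counts in WT and 12 to 47 in Trem2-/- libraries, and Acta2 had 4 to 14 and 5 to 23. Tagln, Myh11 and Cnn1 had at most 11, 4 and 2 counts in any library.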

How the data were processed

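RNA was sequenced from 15 BV2 libraries made with a TruSeq RNA kit. The deposited values are raw read counts per gene, 1 table per library. The authors made them with the CHURP pipeline (Trimmomatic, HISAT2 on GRCm38, featureCounts on Ensembl release 102); neither the strand option nor the handling of multiply matching reads is stated. No column was left unused.

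Library sizes were adjusted by TMM (factors 0.918 to 1.11). After filterByExpr with a minimum count of 10, 14237 of 54390 genes were fitted with 1 mean per group in edgeR 4.0.16 (R 4.3.3, glmQLFit and glmQLFTest), with Benjamini-Hochberg adjustment over all of them and a threshold of 0.05. CPM use these factors. Library totals were 23538963 to 41683825. The genotype difference of the 6 genes was not tested because it chose them. The percentages of the WT count carry 95% exact binomial intervals of the pooled counts, and a count of 0 allows up to 3 counts. Intervals of log2 fold changes came from the edgeR fit. Their SE was the absolute log2 fold change over the square root of the test's F value, and the 95% limits used a t quantile. Shared 50-base stretches and exonic overlap came from GENCODE M21. Promoters are from RefSeq and motifs were searched on both strands. The fit was tested on simulated data.

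The 6 genes, the gene lists and the naming rule (the 6 genes, Trem2, other genes that met or nearly met the count rule or its mirror image, called or uncounted neighbours, and listed genes) were chosen with earlier results of these data known. The result of 1 gene list is not reported here, and its genes are part of the totals over listed genes. Alternatives were DESeq2 1.42.0, RLE factors, total counts alone, no filter, only the groups compared, a replicate block, other count thresholds, leaving out each library, and, added after the data were seen, counts divided by 2.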

Additional observations from a re-analysis of the deposited data

Results flagged for a closer look

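Of 20 groups of 4 libraries examined for the 6 genes and Trem2, 5 held a library that stood far from the other 3, and all 5 were Trem2-/- foamy groups; the Trem2-/- non-foamy group has 3 libraries and was not examined. In 4 of them the other 3 libraries were at 0, where any single count above 0 makes up the whole range of the group (a share of 1.0), so the usual rate of about 1 in 20 groups by chance does not apply to them: Syde2 with 2 counts in replicate 1, Raet1e with 1 count in replicate 3, Jazf1 with 2 counts in replicate 3 and Smtn with 2 counts in replicate 2. In the remaining group, Trem2 in replicate 3 was the lowest in CPM, at 218 (6875 counts) against 226 to 227 in the others. The gap was 0.959 of that narrow range. In raw counts replicate 4 was lower, at 6100.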

How the results depend on the processing

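No member was called for the cholesterol response in WT cells under any of 15 alternatives, which include leaving out each of the 8 WT libraries (0 of 6 in each, but DESeq2 gave an adjusted p for 1 member alone). The lowest adjusted p was 0.186, for Raet1e, whose unadjusted p was 0.0207 with only the 2 groups compared, 0.0217 with counts divided by 2 and 0.0488 with total counts alone by edgeR. The log2 fold change kept its sign for Syde2 (−0.29 to −0.11), Raet1e (−0.65 to −0.44) and Smtn (−0.66 to −0.45). It turned for Jazf1 (−0.08) and Zfp551 (−0.01) with the replicate block, and on leaving out single libraries it ran from −0.08 (without WT foamy replicate 2) to 0.4 for Zfp808, from −0.12 to 0.29 for Jazf1 (−0.01 without WT non-foamy replicate 3, −0.11 without WT foamy replicate 2) and from −0.19 to 0.24 for Zfp551 (−0.19 without WT foamy replicate 4, −0.07 without WT foamy replicate 1). Deviations of same-numbered libraries were weakly correlated (−0.063 to 0.143). Libraries of different number were not compared in this way, so whether the numbers pair the samples cannot be decided. With the replicate block 0 members, 18 and 9 neighbours and 131 and 74 listed genes were called. Without it these were 0, 17 and 10, and 135 and 81. Leaving out each library in turn gave 6 to 10 called neighbours in foamy cells, 6 without WT foamy replicate 4.

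The count rule gave 3 genes with at most 1 count in Trem2-/- libraries (Zfp551, Raet1e and Egln3), 5 to 10 under other thresholds and scalings, and 7 to 10 on leaving out each library; with at least 20 counts, and with counts divided by 2, it kept 4 of the 6 members. The mirrored rule gave 2 genes with at least 5 counts (Ust and Glis3), 1 with counts divided by 2 (A530076I17Rik) and 0 to 1 on leaving out each library (Grik4 without WT foamy replicate 3, Glis3 without Trem2-/- non-foamy replicate 2), all named after their values were seen; the cause was not tested. Of 345 tested genes of the lists, 292 were Zfp genes. The 345 split into 37 lower and 98 higher in non-foamy and 32 and 49 in foamy cells. All 14237 tested genes split into 3222 and 2985, and 2261 and 2036. By total counts alone the listed genes split into 56 and 41, and 55 and 22. All tested genes then split into 4379 and 1820, and 3666 and 1115. Levels near 1 CPM limit what could be detected within WT cells.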
